A study of Mus musculus with 12 samples.

Results

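The small leucine-rich proteoglycans are secreted matrix proteins, and 10 of their genes were followed here in young fat cells: Dcn, Bgn, Lum, Fmod, Ogn, Prelp, Aspn, Omd, Ecm2 and Podn. They were taken by symbol from a count table of 31099 genes, and all 10 were among the 18855 genes with enough reads to be tested. All cells were sorted from wild type CD-1 mice of mixed sex aged 3 days. There were 4 groups of 3 libraries: preadipocytes and progenitors of the perivascular fat of the thoracic aorta, and ICAM1+ preadipocytes and DPP4+ progenitors of inguinal white fat. The labels name no mutant allele and no treatment for any group. Pups were pooled for each library, and per the labels libraries with the same number share a pool, so p-values measure the spread between pools. The main fit does not pair libraries of the same pool and treats them as independent. A block for the pools was run as an alternative. The sources used here name no surface markers for the perivascular sort, so depot and sort gate cannot be told apart.

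These proteins have a core of leucine-rich repeats that folds into a curved solenoid and binds collagen fibrils. Many of the cores carry chains of chondroitin or dermatan sulfate (decorin, biglycan) or keratan sulfate (lumican, fibromodulin), and the bound proteoglycan limits how fibrils grow and fuse. In fat, stromal cells and preadipocytes make most of this matrix, while mature adipocytes make less of it. The family is sorted by sequence into classes, here the decorin class (Dcn, Bgn, Aspn, Ecm2), the lumican class (Lum, Fmod, Prelp, Omd), the osteoglycin class (Ogn) and the podocan class (Podn).

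Of the 10 genes, 8 lie in 3 clusters (mm10 coordinates, GENCODE). Ecm2, Aspn, Omd and Ogn follow each other on the plus strand of chromosome 13, chr13:49504810-49624501, with 11.7, 14.9 and 15.2 kb between them. All 4 lie within the span of Cenpp, a kinetochore gene on the other strand. Dcn and Lum are 47.0 kb apart on chromosome 10 (chr10:97479609-97572703). Prelp and Fmod are 115.8 kb apart on chromosome 1 on opposite strands (chr1:133910304-134048277). Bgn is on the X chromosome (chrX:73483602-73495933) and Podn on chromosome 4 (chr4:108014791-108096445). Prelp shares 350 exon bases with the antisense gene Gm15851, which had 60 reads in all libraries together, and Aspn shares 7 with Cenpp. The sources used here do not say whether reads were counted by strand.

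The 4 genes of the chromosome 13 cluster did not share one pattern of expression, as described further on, so the 250 bases before the RefSeq start of each (GRCm38.p6, plus strand) are shown for comparison, 5′ to 3′. Capitals mark matches on either strand to TATAAA, the letters of the TATA box, and to GGGCGG, the letters of the GC box.
Ecm2: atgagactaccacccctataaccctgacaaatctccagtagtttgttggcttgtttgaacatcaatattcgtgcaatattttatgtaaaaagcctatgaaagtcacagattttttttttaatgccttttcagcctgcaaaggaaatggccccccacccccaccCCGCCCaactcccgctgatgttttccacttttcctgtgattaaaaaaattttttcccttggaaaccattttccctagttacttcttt
Aspn: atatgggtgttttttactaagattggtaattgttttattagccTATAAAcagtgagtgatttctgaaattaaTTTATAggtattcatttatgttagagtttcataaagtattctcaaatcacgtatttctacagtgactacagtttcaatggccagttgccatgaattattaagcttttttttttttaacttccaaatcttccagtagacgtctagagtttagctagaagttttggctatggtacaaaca
Omd: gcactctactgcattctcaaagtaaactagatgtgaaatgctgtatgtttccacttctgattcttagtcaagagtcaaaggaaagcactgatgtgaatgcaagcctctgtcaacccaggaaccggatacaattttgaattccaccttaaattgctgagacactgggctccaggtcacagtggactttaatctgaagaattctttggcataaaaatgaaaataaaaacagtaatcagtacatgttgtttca
Ogn: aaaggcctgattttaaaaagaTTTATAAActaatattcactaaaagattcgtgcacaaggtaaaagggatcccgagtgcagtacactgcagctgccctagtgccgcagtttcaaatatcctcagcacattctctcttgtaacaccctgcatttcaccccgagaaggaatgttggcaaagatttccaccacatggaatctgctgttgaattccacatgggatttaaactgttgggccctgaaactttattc
The windows are chr13:49504560-49504809 for Ecm2, chr13:49544193-49544442 for Aspn, chr13:49582212-49582461 for Omd and chr13:49607765-49608014 for Ogn. Their G and C content was 40.0, 30.0, 38.4 and 42%, in that order. TATAAA began 207 and 178 bases before the start of Aspn, and 229 and 227 before that of Ogn, where the matches on the 2 strands overlap. It is found in 12.4% of the 32851 RefSeq windows of this length. GGGCGG, found in 32.7% of the windows, had 1 match, 87 bases before the start of Ecm2. The E-box letters CANNTG, which are not capitalised, had 3 matches before Ogn and 1 before Aspn, against 66.2% of all windows with at least 1 match. These are matches of letters and show no binding. RefSeq windows were at hand for 8 of the 10 genes, without Dcn and Lum.

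Levels are CPM, the counts of a gene per 1e+06 counts of its library, after scaling by edgeR's TMM factors, and library totals ran from 15614628 to 25674461 counts. Changes are log2 fold changes ± SE with the Benjamini-Hochberg adjusted p of edgeR's quasi-likelihood test over all genes tested, and a gene is called at an adjusted p under 0.05. Where groups are said to separate or not to overlap, the share of all genes that do so is not given here. In bulk libraries, fewer cells of a type and less RNA per cell cannot be told apart. Summed levels of 6 stromal genes (Pdgfra, Pdgfrb, Col1a1, Col1a2, Col3a1 and Ly6a) were 28120 to 91347 CPM in perivascular preadipocytes and 114452 to 197559 in perivascular progenitors. They were 159088 to 193014 in ICAM1+ preadipocytes and 310415 to 364358 in DPP4+ progenitors. Collagens weigh most in these sums: the highest group mean was 206186 CPM for Col3a1, against 2011 for Ly6a and 623 for Pdgfra. Ly6a was called lower in perivascular preadipocytes than in perivascular progenitors (log2 -6.71) and ICAM1+ preadipocytes (-7.65). Of 6 adipocyte genes (Adipoq, Plin1, Cidec, Lep, Ucp1 and Cidea), all were higher in perivascular than in ICAM1+ preadipocytes, with sums of 508 to 1619 CPM against 29.6 to 42.5. Perivascular preadipocyte library 1 had the lowest adipocyte sum of its group, 508 against 1478 and 1619 CPM, and the highest stromal sum. It also had the highest level of its group for 9 of the 10 proteoglycan genes. Summed levels of 8 chondrocyte genes were 61.7 to 77.1 CPM in perivascular preadipocytes, 33.4 to 51.5 in perivascular progenitors, 31.1 to 35.4 in ICAM1+ preadipocytes and 20.6 to 33.3 in DPP4+ progenitors. Those of 6 mesothelial genes were 29.9 to 69.8, 125 to 227, 10.1 to 17.3 and 26.6 to 32.6 CPM in the same order, and no gene of these lists was at 0 in a whole group. The part of cell makeup in the results below was not tested.

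Decorin was the leading proteoglycan transcript in every library. Per kilobase of transcript, Dcn averaged 3266 ± 736 CPM in perivascular preadipocytes, 7472 ± 997 in perivascular progenitors, 4796 ± 166 in ICAM1+ preadipocytes and 6264 ± 626 in DPP4+ progenitors (SD, n = 3). By mean CPM per kilobase it ranked 4 of 18847 genes in both perivascular groups and 6 in both inguinal groups. This rank depends on the transcript length used. Lum, Ogn, Aspn and Bgn formed a second tier, between 231 and 1758 CPM per kilobase. The remaining 5 genes were far lower, with the highest mean, 101.7 CPM per kilobase, for Prelp in DPP4+ progenitors. The lowest was Fmod there, at 2.34. Together the 10 genes took 0.962 to 1.46% of all counts in perivascular preadipocytes, 1.96 to 2.44% in perivascular progenitors, 1.52 to 1.66% in ICAM1+ preadipocytes and 1.37 to 1.56% in DPP4+ progenitors. The lengths are those of the longest principal transcript. With the union of exons, Dcn is 5838 instead of 1758 bases long, and Dcn over Lum becomes 1.89 to 2.16 in perivascular preadipocytes, 2.26 to 2.43 in perivascular progenitors, 1.03 to 1.08 in ICAM1+ preadipocytes and 1.03 to 1.11 in DPP4+ progenitors. The Dcn share of the 10 genes' summed level per kilobase is then 34.9 to 47.5% over the 12 libraries.

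**Figure D1:**
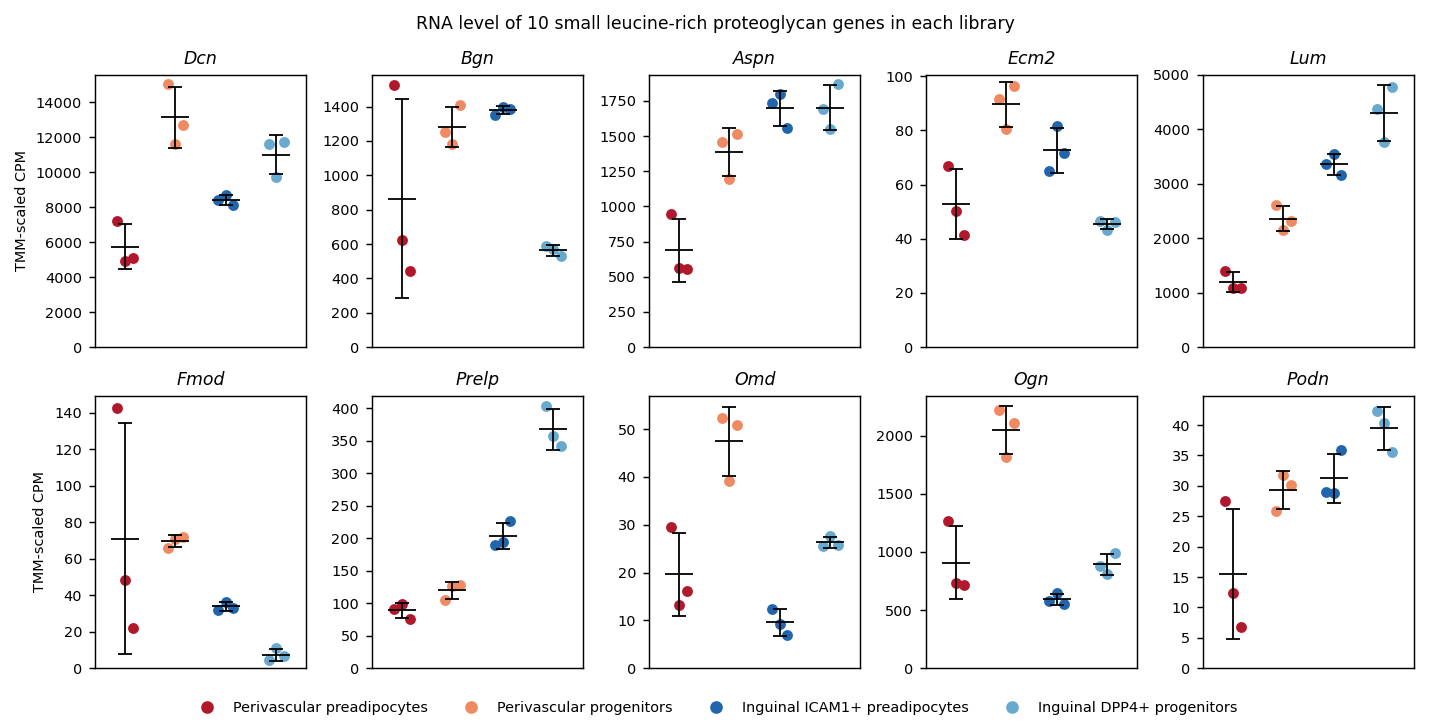
TMM-scaled CPM (linear axes from 0) of each gene in each of the 12 libraries, with the mean and SD of 3 libraries per group. Perivascular preadipocyte library 1, the left point of its group, is the highest of its group for all genes but Prelp, and Bgn there ranges from 441 to 1525 CPM.

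**Figure D2:**
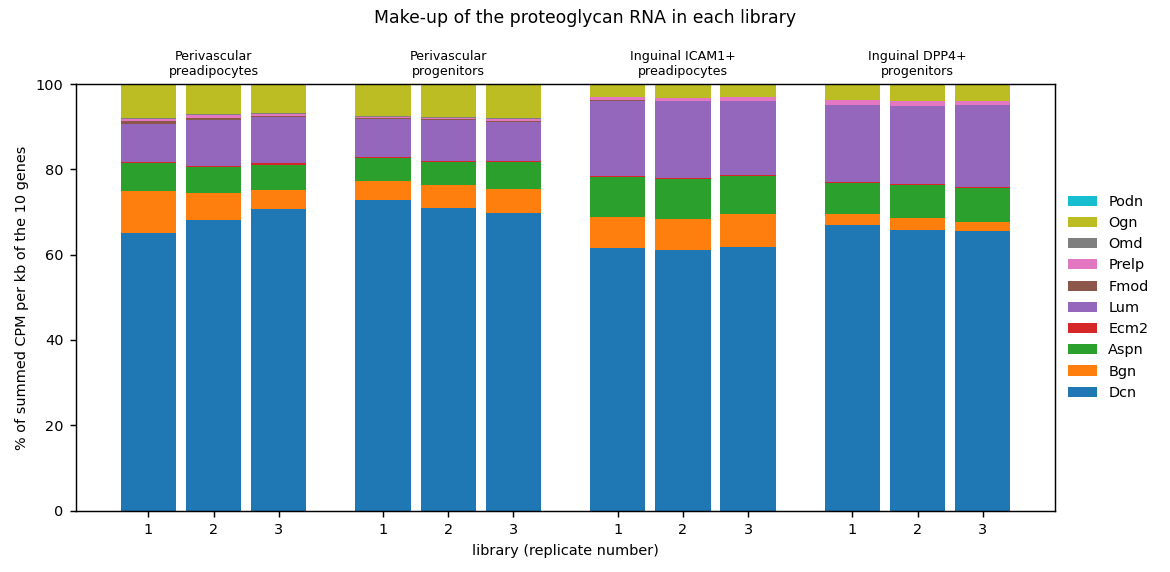
Share of each gene in the summed CPM per kilobase of the 10 genes (stacked to 100%), one bar per library. With these transcript lengths Dcn takes 61.1 to 72.9% in every library, and the Lum share is 9.05 to 10.9% in perivascular and 17.2 to 19.2% in inguinal libraries.

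The first question is how the same genes differ between perivascular and inguinal cells. Among progenitors, 5 of the 10 genes were higher in perivascular cells (Bgn, Fmod, Ogn, Omd, Ecm2) and 2 were lower (Lum, Prelp). Of all genes tested, 24.9% were called in this comparison, 13% higher and 11.8% lower. The median log2 fold change was 0.55 over the 10 genes and 0.05 over all genes. With library totals as the scale, 83.7% of the genes called were higher, against 52.5% with TMM. In the same comparison all 5 progenitor genes (Dpp4, Pi16, Cd55, Wnt2 and Anxa3) were lower in perivascular cells, with sums of 1102 to 1147 CPM against 6108 to 6877 in DPP4+ progenitors. The sums of 7 endothelial genes, 4 of them called lower, were 176 to 248 CPM in perivascular and 745 to 942 CPM in DPP4+ progenitors. Most of the endothelial sum in DPP4+ progenitors is Tek, at a mean of 684 CPM. The highest group means of Kdr, Pecam1 and Cdh5 were 40.0, 38.7 and 11.4 CPM. Those of 5 mast cell genes, 4 called lower, summed to 7.07 to 10.1 CPM in perivascular and 49.0 to 259 CPM in DPP4+ progenitors. Of the 6 adipocyte genes 4 were higher, with sums of 118 to 121 CPM in perivascular and 7.22 to 81.9 CPM in DPP4+ progenitors. Of the 6 mesothelial genes 5 were higher, with the sums given above. Of 7 smooth muscle genes 3 were higher and 0 lower, with sums of 272 to 396 CPM in perivascular and 166 to 290 CPM in DPP4+ progenitors. Of 4 tenocyte genes 2 were higher and 1 lower, with sums of 8.64 to 13.1 CPM against 16.1 to 27.0. The part of these cell types in the depot differences was not tested.

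Fmod (fibromodulin, which binds type I collagen and is best known from tendon) had 65.7, 70.9 and 72.1 CPM in perivascular progenitors, against 4.36, 10.9 and 6.64 CPM in DPP4+ progenitors. The groups lie far apart, and the change was the largest of the 10 genes (log2 3.26 ± 0.55, 9.55-fold, adjusted p = 0.000832). Ogn (osteoglycin, also called mimecan) had 2223, 1815 and 2107 CPM in perivascular progenitors, against 881, 807 and 991 in DPP4+ progenitors. Every perivascular library was higher, by 2.29-fold in the fit (log2 1.20 ± 0.22, adjusted p = 0.00144). Ecm2, known in humans also as female organ and adipocyte protein, had 91.7, 80.5 and 96.4 CPM in perivascular progenitors, against 46.4, 43.3 and 46.3 in DPP4+ progenitors. The groups did not overlap (log2 0.98 ± 0.17, adjusted p = 0.00116).

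Bgn (biglycan, which also signals through Toll-like receptors) averaged 1282 ± 117 CPM in perivascular and 564 ± 31.6 CPM in DPP4+ progenitors (SD, n = 3; log2 1.18 ± 0.34, adjusted p = 0.0223). Omd (osteomodulin, a binder of bone mineral) averaged 47.4 ± 7.16 and 26.3 ± 1.19 CPM in the same groups (log2 0.85 ± 0.28, adjusted p = 0.0412). Neither gene overlapped between the groups. The Bgn call was lost without perivascular progenitor library 3 or any 1 of the 3 DPP4+ libraries (log2 1.11 to 1.22, adjusted p 0.0593 to 0.0767). The Omd call was lost without perivascular progenitor library 1 or 3, any 1 of the DPP4+ libraries or ICAM1+ library 2 (adjusted p 0.0594 to 0.112), with DESeq2's size factors (0.0501) and without the count filter (0.0537).

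Lum and Prelp went the other way. Prelp (prolargin, which links basement membranes to collagen and binds heparan sulfate) had 105, 126 and 129 CPM in perivascular progenitors, against 403, 358 and 342 in DPP4+ progenitors (log2 -1.62 ± 0.15, 3.07-fold lower, adjusted p = 8.70e-06). Lum (lumican, a keratan sulfate proteoglycan known from the transparent cornea) had 2603, 2155 and 2317 CPM in perivascular progenitors, against 4379, 3758 and 4771 in DPP4+ progenitors (log2 -0.87 ± 0.18, 1.82-fold lower, adjusted p = 0.00292). Both genes separated the groups fully. Dcn (log2 0.25, adjusted p = 0.42), Aspn (-0.29, 0.348) and Podn (-0.43, 0.415) did not pass the test. On library totals Dcn was called (0.69, adjusted p = 0.0137), and without the 3 libraries that earlier work set apart (perivascular progenitor 1, perivascular preadipocyte 1, DPP4+ 2) Aspn was called (-0.40, adjusted p = 0.0362). The rule by which they were set apart is not given here, and in that fit only ICAM1+ preadipocytes keep all their libraries.

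Among preadipocytes the balance was different: 6 of the 10 genes were lower in perivascular cells (Dcn, Lum, Prelp, Aspn, Ecm2, Podn) and 2 were higher (Ogn, Omd). Of all genes, 44.9% were called, 21.4% lower and 23.5% higher. The median was -0.61 over the 10 genes and 0.04 over all genes. In the same comparison all 6 stromal genes were lower and all 6 adipocyte genes higher. All 4 tenocyte genes were higher, with sums of 33.9 to 45.2 CPM in perivascular and 9.05 to 17.3 CPM in ICAM1+ preadipocytes. Of the 7 smooth muscle genes 1 was higher and 1 lower.

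Lum had 1402, 1090 and 1088 CPM in perivascular preadipocytes, against 3357, 3545 and 3155 in ICAM1+ preadipocytes. No perivascular library came near an inguinal one (log2 -1.49 ± 0.18, 2.81-fold lower, adjusted p = 5.44e-05). Aspn (asporin, a decorin relative that carries no glycosaminoglycan chain) had 947, 563 and 557 CPM in perivascular preadipocytes, against 1736, 1800 and 1557 in ICAM1+ preadipocytes (log2 -1.30 ± 0.21, 2.46-fold lower, adjusted p = 0.000471). Prelp had 91.3, 99.4 and 76.0 CPM in perivascular preadipocytes, against 190, 194 and 226 in ICAM1+ preadipocytes (log2 -1.19 ± 0.15, 2.29-fold lower, adjusted p = 8.12e-05). These 3 genes separated the groups, with no share over all genes given here, and their calls held under every alternative run.

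The other 5 calls were less stable. Dcn averaged 5741 ± 1295 CPM in perivascular and 8430.5 ± 292 CPM in ICAM1+ preadipocytes (log2 -0.55 ± 0.21, adjusted p = 0.0487). Ecm2 averaged 52.8 ± 12.9 and 72.6 ± 8.36 CPM in the same groups (log2 -0.46 ± 0.17, adjusted p = 0.0436). Among fits that leave out 1 library, both calls held without perivascular progenitor library 1 or 2 or perivascular preadipocyte library 1, and were lost without any 1 of the other 9 libraries (adjusted p 0.0612 to 0.172 for Dcn and 0.0511 to 0.161 for Ecm2). Podn (podocan, first described in podocytes of the kidney) had 27.4, 12.4 and 6.81 CPM in perivascular preadipocytes, against 29.0, 28.8 and 35.8 in ICAM1+ preadipocytes (2.01-fold lower, adjusted p = 0.0364). Library 1 lies next to the inguinal range and libraries 2 and 3 well under it. Without that library the Podn change was -1.76 (adjusted p = 9.90e-05), and without perivascular preadipocyte library 2 or 3 or any 1 of the ICAM1+ libraries its call was lost (-0.70 to -1.06, adjusted p 0.0621 to 0.13).

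Ogn and Omd were the genes higher in perivascular preadipocytes. Ogn had 1269, 735 and 715 CPM there, against 577, 646 and 555 in ICAM1+ preadipocytes (log2 0.61 ± 0.22, adjusted p = 0.035). Omd had 29.5, 13.3 and 16.1 CPM in perivascular preadipocytes, against 12.4, 9.25 and 6.99 in ICAM1+ preadipocytes (log2 1.04 ± 0.28, adjusted p = 0.01). In both genes library 1 was highest and the groups did not overlap. Without perivascular preadipocyte library 1 neither was called (0.24, adjusted p = 0.13 for Ogn and 0.57, adjusted p = 0.0534 for Omd). The Ogn call was also lost without perivascular progenitor library 2, DPP4+ library 1 or any 1 of the ICAM1+ libraries (0.57 to 0.68, adjusted p from 0.0522), and that of Omd without ICAM1+ library 3 (0.86, adjusted p = 0.0512). With the pools of mice as a block, the Ogn change was 0.58 (adjusted p = 0.0523) and the Ecm2 change -0.48 (adjusted p = 0.0605), so that both calls were lost. Bgn (-0.67, adjusted p = 0.119) and Fmod (1.07, adjusted p = 0.0967) did not pass, but without perivascular preadipocyte library 1 Bgn was called lower (-1.43, adjusted p = 1.68e-05), and without library 3 Fmod was called higher (1.45, adjusted p = 0.0124). Without library 1, at 142 CPM, the Fmod change was -0.0012 (adjusted p = 0.998). Libraries 2 and 3, at 48.4 and 22.0 CPM, lay above and below the ICAM1+ libraries, at 31.9, 36.5 and 33.1 CPM. On library totals, Dcn (adjusted p = 0.167), Ecm2 (0.233) and Podn (0.0774) were not called and Fmod was (1.27, 0.0493). In a fit of the preadipocyte groups alone, Dcn (adjusted p = 0.108), Ecm2 (0.064), Podn (0.0692) and Ogn (0.132) were not called, and Ogn also not without the count filter (0.0768) or without the 3 libraries named above (0.0869).

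**Figure D3:**
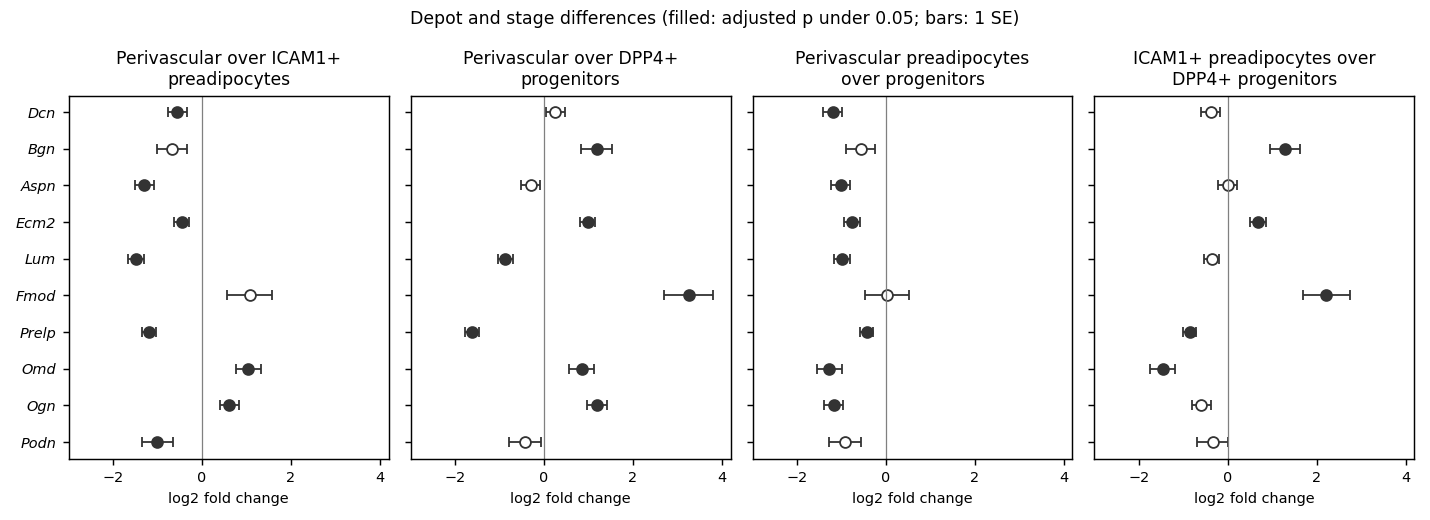
Log2 fold changes with 1 SE (linear axes) of the 10 genes in the 4 comparisons, filled where the adjusted p of edgeR's test is under 0.05. Lum and Prelp lie left of 0 in both depot panels and Ogn and Omd right of 0, while in the perivascular stage panel all genes but Fmod (0.03) lie left of 0.

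The second question is how the genes differ between preadipocytes and progenitors of 1 depot. In perivascular fat, 7 of the 10 genes were lower in preadipocytes (Dcn, Lum, Ogn, Prelp, Aspn, Omd, Ecm2), and edgeR called 0 higher. Of all genes, 32.9% were called, 16.1% lower and 16.8% higher. Beside this, 5 of the 6 stromal genes were lower and all 6 adipocyte genes higher. The median of the 10 genes was -0.95, against -0.05 over all genes. Podn (-0.91, adjusted p = 0.0666) was not called, while its unadjusted p in edgeR's test was 0.0243.

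Dcn (decorin, which binds type I collagen and TGF-beta) had 7232, 4898 and 5094 CPM in perivascular preadipocytes, against 15058, 11628 and 12719 in perivascular progenitors. All preadipocyte libraries were lower, by 2.29-fold in the fit (log2 -1.19 ± 0.21, adjusted p = 0.00169). Ogn was 2.26-fold lower (log2 -1.18 ± 0.22, adjusted p = 0.00201) and Omd 2.41-fold lower (-1.27 ± 0.28, adjusted p = 0.00511). Lum fell by 0.98 on the log2 scale (adjusted p = 0.00169), Aspn by 1.01 (0.0041) and Ecm2 by 0.76 (0.00582). These 6 genes did not overlap between the groups, and the share of all genes that do not overlap is not given here. Their calls held whichever single library was left out. In a fit of these 2 groups alone, Dcn (adjusted p = 0.0572), Aspn (0.0548) and Ecm2 (0.0559) were not called.

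Prelp was only 1.35-fold lower (log2 -0.43 ± 0.15, adjusted p = 0.0426), and its call was lost in 13 of 21 alternatives. It held without perivascular progenitor library 1 or perivascular preadipocyte library 1 or 2, and was lost without any 1 of the other 9 libraries (adjusted p 0.0549 to 0.146). It was also lost with the pools as a block (-0.43, adjusted p = 0.0726), on library totals (-0.26, 0.211), without the count filter (0.0718) and in the 2 groups alone (0.17). Bgn and Fmod turned on a single library. Bgn had 1525, 626 and 441 CPM in perivascular preadipocytes, against 1251, 1184 and 1411 in perivascular progenitors (log2 -0.57, adjusted p = 0.212). Fmod had 142, 48.4 and 22.0 CPM in perivascular preadipocytes, against 65.7, 70.9 and 72.1 in perivascular progenitors (log2 0.03, adjusted p = 0.97). In both genes library 1 lies above all the progenitor libraries and libraries 2 and 3 under them. Without that library Bgn was called lower (-1.30, adjusted p = 4.62e-05), Fmod turned to -1.02 (adjusted p = 0.0316) and Podn was called at -1.64 (adjusted p = 0.000206). Podn was also called without perivascular progenitor library 1 (-1.04).

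In inguinal fat the direction was divided: 3 genes were higher in ICAM1+ preadipocytes (Bgn, Fmod, Ecm2) and 2 lower (Prelp, Omd). Of all genes, 17.9% were called, 9.34% higher and 8.61% lower. On library totals, 82.6% of the genes called were higher, against 52.0% with TMM. Of the 7 smooth muscle genes 2 were higher in ICAM1+ preadipocytes and 0 lower, with sums of 402 to 515 CPM against 166 to 290 in DPP4+ progenitors. Prelp was 1.81-fold lower in ICAM1+ preadipocytes (log2 -0.85 ± 0.15, adjusted p = 0.00148) and Omd 2.76-fold lower (-1.46 ± 0.29, adjusted p = 0.00304), and both calls held under every alternative. Fmod had 31.9, 36.5 and 33.1 CPM in ICAM1+ preadipocytes, against 4.36, 10.9 and 6.64 in DPP4+ progenitors (log2 2.22 ± 0.53, 4.64-fold, adjusted p = 0.0112). The gap between the groups is wide, yet the call was lost without DPP4+ library 1, the lowest (1.95, adjusted p = 0.0559).

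Bgn had 1351, 1397 and 1389 CPM in ICAM1+ preadipocytes, against 590, 574 and 529 in DPP4+ progenitors (log2 1.29 ± 0.34, 2.44-fold, adjusted p = 0.0191). The libraries of each group lie close together. The Bgn call was lost without any 1 of the DPP4+ libraries or ICAM1+ library 2 or 3, with the change between 1.25 and 1.33 (adjusted p 0.0522 to 0.0697). Ecm2 had 64.9, 81.5 and 71.6 CPM in ICAM1+ preadipocytes, against 46.4, 43.3 and 46.3 in DPP4+ progenitors (log2 0.68 ± 0.17, adjusted p = 0.0152), a call lost without DPP4+ library 2 (0.65) or ICAM1+ library 2 (0.60; adjusted p 0.0603 to 0.0753). The remaining 5 genes did not pass, with Aspn at log2 0.00 (adjusted p = 0.995), Dcn at -0.39 (0.252), Lum at -0.36 (0.192), Podn at -0.34 (0.584) and Ogn at -0.59 (0.0797). Without perivascular preadipocyte library 1, Dcn (-0.39, adjusted p = 0.0321), Lum (-0.36, 0.0335) and Ogn (-0.60) were called lower, and Ogn also without library 3 of that group. In a fit of the inguinal groups alone Dcn, Lum, Ogn and Podn were called lower (-0.40, -0.37, -0.60 and -0.35).

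The difference between the 2 stage changes was tested as an interaction, in which a negative value means that preadipocytes stand lower against progenitors in perivascular than in inguinal fat. It was called for 3 of the 10 genes, Bgn, Aspn and Ecm2, all negative. Of all genes 15% were called, 8.66% negative and 6.37% positive. Ecm2 had the steadiest one (log2 -1.44 ± 0.24, adjusted p = 0.00236): it was lower in perivascular preadipocytes than progenitors and higher in ICAM1+ preadipocytes than DPP4+ progenitors, and the call held under every alternative. The interaction of Bgn was -1.86 ± 0.48 (adjusted p = 0.0222). It was lost without perivascular progenitor library 3, perivascular preadipocyte library 2, DPP4+ library 3 or ICAM1+ library 2 or 3 (-1.68 to -1.86, adjusted p 0.0503 to 0.0608). The interaction of Aspn was -1.01 ± 0.30 (adjusted p = 0.0403). It was lost without any 1 of 10 libraries, all but perivascular progenitor library 1 and perivascular preadipocyte library 1 (adjusted p 0.0505 to 0.103). Without perivascular preadipocyte library 1, Dcn (-1.04), Lum (-0.78), Fmod (-3.23), Ogn (-0.93) and Podn (-1.30) were called too, and Fmod also without perivascular progenitor library 1 (-2.26).

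The order of the groups thus differed between genes. Lum and Prelp had the same order, with DPP4+ progenitors highest, then ICAM1+ preadipocytes, perivascular progenitors and perivascular preadipocytes, and no 2 neighbouring groups overlapped. Ogn was highest in perivascular progenitors and lowest in ICAM1+ preadipocytes, while perivascular preadipocytes and DPP4+ progenitors overlapped in the middle. Omd had that order too, except that the 2 middle groups changed places, again with overlapping ranges. For Dcn, perivascular and DPP4+ progenitors overlapped at the top, followed by ICAM1+ and then perivascular preadipocytes, each apart from its neighbour. For Bgn, Ecm2 and Podn every pair of neighbouring groups overlapped. Fmod overlapped between the 2 perivascular groups and Aspn between the 2 inguinal groups, which had the highest means for each of them. The Fmod range of perivascular preadipocytes, 22.0 to 142 CPM, also spans that of ICAM1+ preadipocytes, 31.9 to 36.5 CPM.

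Within libraries the ratio of one proteoglycan to another separated the depots. Dcn over Lum, per kilobase, was 6.26 to 7.18 in perivascular preadipocytes, 7.51 to 8.06 in perivascular progenitors, 3.42 to 3.59 in ICAM1+ preadipocytes and 3.42 to 3.69 in DPP4+ progenitors. All perivascular libraries lie above all inguinal ones, and the inguinal groups overlap. Ogn over Aspn, neighbours on chromosome 13, was 1.16 to 1.22 in perivascular preadipocytes, 1.262 to 1.386 in perivascular progenitors, 0.302 to 0.326 in ICAM1+ preadipocytes and 0.473 to 0.482 in DPP4+ progenitors. Ogn transcripts thus outnumber those of Aspn in every perivascular library and in no inguinal one. Dcn over Bgn was 6.53 to 15.9 in perivascular preadipocytes, 12.4 to 16.6 in perivascular progenitors, 8.06 to 8.59 in ICAM1+ preadipocytes and 23.4 to 30.4 in DPP4+ progenitors, the last group lying apart from the other 3. Ratios within a library do not depend on its scaling, but the absolute ratio depends on the lengths used. No test was run on them.

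**Figure D4:**
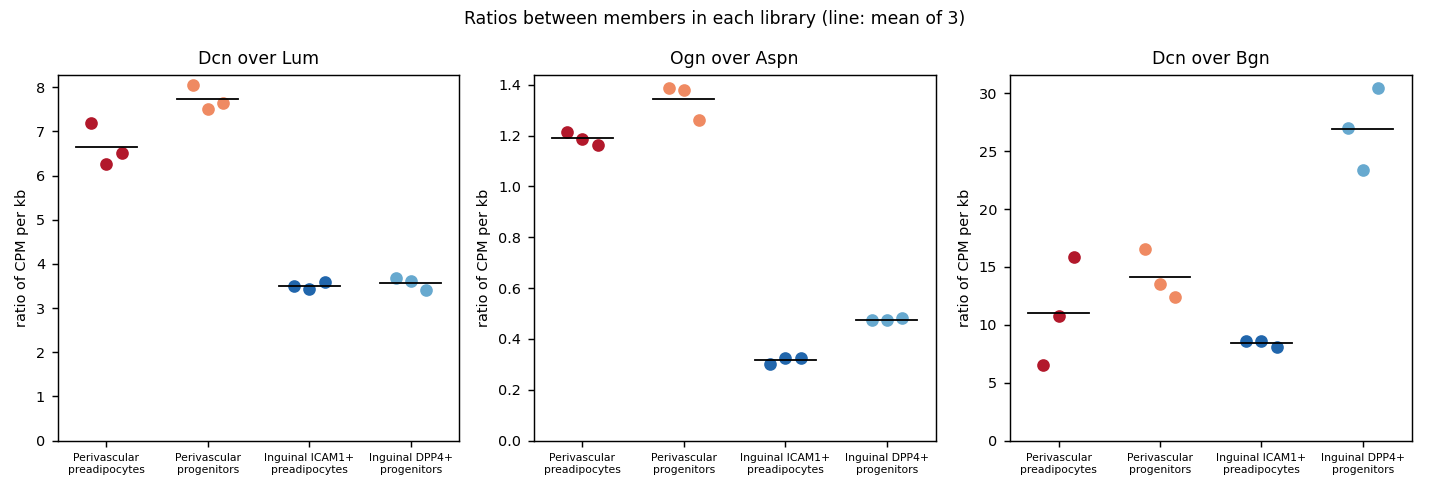
Ratio of CPM per kilobase between 2 genes in each library (linear axes from 0), with the mean of the 3 libraries of a group as a line. Dcn over Lum and Ogn over Aspn are higher in all 6 perivascular than in all 6 inguinal libraries, and Dcn over Bgn is highest in DPP4+ progenitors.

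Over the 12 libraries, log2 CPM of Lum and Aspn had a Pearson correlation of 0.94, Ogn and Omd 0.92, Bgn and Ecm2 0.90 and Lum and Prelp 0.90. Fmod and Prelp, 115.8 kb apart, had the lowest of all pairs (-0.80). Of the chromosome 13 genes, Ogn and Aspn had 0.06. Among 8970 genes, the one most like each proteoglycan gene was Ccndbp1 for Dcn (0.96), Tmem119 for Bgn (0.99), Capg for Lum (0.99), Tmem204 for Fmod (0.99) and Meis1 for Ogn (0.96). For the others it was Pdxk for Prelp (0.99), Rhoj for Aspn (0.99), Ccser2 for Omd (0.96), Fgf7 for Ecm2 (0.96) and Postn for Podn (0.99). These correlations describe 12 libraries in 4 groups, which share libraries, scaling and group differences.

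Further relatives of the family were mostly low. Of 8 such genes, 7 could be tested, and between the preadipocytes 2 were higher, 1 with a minimum count of 50, and 2 lower in perivascular cells. These shares are near the 23.5% higher and 21.4% lower among all genes. Epyc (epiphycan, known from growth plate cartilage), which follows Lum and Kera on chromosome 10, averaged 21.9 ± 5.67 CPM in perivascular preadipocytes, 34.4 ± 3.03 in perivascular progenitors, 1.20 ± 0.273 in ICAM1+ preadipocytes and 3.09 ± 1.01 in DPP4+ progenitors. It was higher in perivascular cells at both stages (log2 4.19 ± 0.30, adjusted p = 1.07e-06 in preadipocytes and 3.48 ± 0.28, adjusted p = 2.67e-06 in progenitors), while its neighbour Lum was lower in both. Kera (keratocan, of the cornea) averaged 2.51 ± 0.917, 2.38 ± 0.717, 9.83 ± 1.41 and 1.60 ± 0.93 CPM in the same order of groups, and was higher in ICAM1+ preadipocytes than in DPP4+ progenitors (log2 2.62, adjusted p = 0.0008) and lower in perivascular than in ICAM1+ preadipocytes (-1.97, adjusted p = 0.00178). Tsku (tsukushi, a secreted regulator of BMP and Wnt signals) was lower in perivascular preadipocytes than in perivascular progenitors (-1.53, adjusted p = 0.00187) and in ICAM1+ preadipocytes (-1.28, adjusted p = 0.00275). Cenpp, whose span holds the chromosome 13 genes, was higher in perivascular cells at both stages (1.91 in preadipocytes and 1.51 in progenitors).

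Of 12 collagen genes whose fibrils these proteoglycans bind or join, 10 were lower in perivascular than in ICAM1+ preadipocytes, against 21.4% of all genes, with a median of -1.63 against 0.04 over all genes. The remaining call was 1 gene higher, Col11a1 of cartilage fibrils, against 23.5% of all genes. Col11a1 was not called without perivascular preadipocyte library 1 or without any 1 ICAM1+ library. Nor was it called without the 3 libraries named above, with the pools as a block or in the 2 groups alone. Between progenitors 3 of the 12 were lower in perivascular cells, against 11.8% of all genes. That count was 1 without perivascular progenitor library 3, without DPP4+ library 3 or on library totals, 5 without perivascular preadipocyte library 3 and 8 without library 1 of that group. There too 1 was higher, Col11a1 (log2 2.67 ± 0.52, adjusted p = 0.00226), against 13% of all genes. Col5a3 averaged 68.6 ± 4.49 CPM in perivascular preadipocytes and 1467 ± 63.0 CPM in ICAM1+ preadipocytes (SD, n = 3; log2 -4.42 ± 0.27, adjusted p = 2.75e-07). Col1a1, the main fibrillar collagen chain, averaged 8833 ± 5944 CPM in perivascular and 35226 ± 3446 CPM in ICAM1+ preadipocytes (-1.996 ± 0.45, adjusted p = 0.00356). Of the same 12 genes, 10 were also lower in perivascular preadipocytes than in perivascular progenitors (median -1.20; 16.1% of all genes), but a fit of these 2 groups alone called 1. In ICAM1+ preadipocytes Col12a1, a collagen of fibril surfaces, was higher than in DPP4+ progenitors (1.59, adjusted p = 0.000329).

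Of 12 receptor and growth factor genes whose products bind these proteoglycans, 7 were lower in perivascular than in DPP4+ progenitors, 7 lower in perivascular than in ICAM1+ preadipocytes, and 5 lower in ICAM1+ preadipocytes than in DPP4+ progenitors. Of all genes, 11.8, 21.4 and 8.61% were lower and 13, 23.5 and 9.34% higher in these comparisons, in that order. Between progenitors 1 was higher, Tgfb3, which averaged 373 ± 37.3 CPM in perivascular and 97.8 ± 5.59 CPM in DPP4+ progenitors (SD, n = 3; log2 1.93 ± 0.43, adjusted p = 0.00512). On library totals 3 were higher there, and 2 with limma-voom or without the 3 libraries named above. Between preadipocytes 2 were higher, Bmp4 (log2 1.11 ± 0.25, adjusted p = 0.00373) and Erbb4, which averaged under 1 CPM in every group. That count was 1 without perivascular preadipocyte library 2, without ICAM1+ library 1 or 3, or with a minimum count of 50. Between the inguinal groups 1 was higher in ICAM1+ preadipocytes, and 0 without any 1 of the 6 inguinal libraries or without library 2 of either perivascular group. Tlr2, a receptor of biglycan, was lower in perivascular cells of both stages (log2 -2.91, adjusted p = 4.24e-06 in preadipocytes and -2.06, adjusted p = 3.13e-05 in progenitors). Tgfb1, which like Tgfb3 encodes a TGF-beta bound by decorin, averaged 4.11 ± 0.611 CPM in perivascular and 14.9 ± 1.73 CPM in ICAM1+ preadipocytes (-1.85, adjusted p = 3.03e-05). Bmp4, a growth factor bound by biglycan, averaged 2.999 ± 0.59 CPM in ICAM1+ preadipocytes and 55.5 ± 4.16 CPM in DPP4+ progenitors (log2 -4.198, adjusted p = 5.76e-07).

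Of 8 tested genes for proteases that cut these proteoglycans, 6 were lower in perivascular than in ICAM1+ preadipocytes and 4 lower in perivascular than in DPP4+ progenitors, against 21.4 and 11.8% of all genes. Between progenitors 1 was higher, against 13% of all genes: Mmp3, at 10.4 ± 1.40 CPM in perivascular and 1.83 ± 0.588 CPM in DPP4+ progenitors (log2 2.499 ± 0.46, adjusted p = 0.00157). That count was 2 without perivascular preadipocyte library 1 or 3, without the 3 libraries named above, on library totals, with limma-voom and in the 2 groups alone. Between the inguinal groups 3 were lower and 2 higher in ICAM1+ preadipocytes, against 8.61 and 9.34% of all genes. Tll1, a tolloid protease, was lower in perivascular cells of both stages (-2.01, adjusted p = 0.000103 in preadipocytes and -2.67, adjusted p = 7.06e-06 in progenitors). Adamts5, an aggrecanase, was lower in perivascular preadipocytes than in perivascular progenitors (-1.75, adjusted p = 0.000376). Mmp3, the stromelysin that cuts decorin, was also higher in ICAM1+ preadipocytes, at 23.7 ± 2.60 CPM, than in DPP4+ progenitors (3.69, adjusted p = 0.000136).

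The next lists build the sugar chains. Of 15 tested genes of chondroitin and dermatan sulfate synthesis, 3 were higher and 4 lower in perivascular than in DPP4+ progenitors, against 13% higher and 11.8% lower of all genes, and 7 were lower without perivascular preadipocyte library 1 and 8 with limma-voom. Csgalnact1, which starts chondroitin chains, was higher (1.27, adjusted p = 0.00325), while Dsel, a relative of the dermatan sulfate epimerase, and the sulfotransferase gene Chst15 were lower (-1.21, adjusted p = 0.00271 and -1.16, adjusted p = 0.00253). Of 7 tested genes of keratan sulfate synthesis, 3 were lower in ICAM1+ preadipocytes than in DPP4+ progenitors, against 8.61% of all genes, and 1 without ICAM1+ library 1 or 3 or on library totals. Chst1, the keratan sulfate sulfotransferase, averaged 5.995 ± 0.34 CPM in ICAM1+ preadipocytes and 55.7 ± 10.4 CPM in DPP4+ progenitors (-3.21, adjusted p = 1.79e-06), and was also lower in perivascular than in DPP4+ progenitors (-2.42, adjusted p = 8.86e-06). Between these progenitors it was the 1 gene lower of the 7, while 2 were higher, against 11.8% lower and 13% higher of all genes. Chst2 was among the higher (2.75, adjusted p = 0.00654). Only 1 was higher without perivascular progenitor library 2 or 3 or DPP4+ library 2 or 3, and 3 were lower without perivascular progenitor library 1. Of 6 genes of the linker that joins chain and core, 1 was higher in perivascular than in ICAM1+ preadipocytes, against 23.5% of all genes. It was the galactosyltransferase gene B3galt6 (3.08, adjusted p = 0.0022), for which DESeq2 gave no adjusted p. Of 18 tested genes of other proteoglycan families, 6 were higher and 6 lower in perivascular than in DPP4+ progenitors, and 3 lower on library totals. Of all genes, 13% were higher and 11.8% lower. Spock2 (testican-2; log2 2.64, adjusted p = 0.000356) and Gpc1 (glypican-1, a heparan sulfate proteoglycan; 2.49, adjusted p = 0.00196) were higher in perivascular progenitors. Spock3 (testican-3) was lower (-3.14, adjusted p = 6.99e-06), and Vcan (versican, a large chondroitin sulfate proteoglycan) was lower in perivascular than in ICAM1+ preadipocytes (-2.95, adjusted p = 1.52e-05).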

How the data were processed

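Libraries were made from poly(A) RNA of sorted cells with the SMART-Seq v4 kit for low input, per the labels. The submitters' processing notes name STAR 2.5.2a, build mm10 and DESeq2 1.26.0. The sources used here name no counting tool, annotation or strand setting. The raw counts per gene deposited by the authors were used, and their normalised tables were not. All 12 columns were assigned by name and 0 were left over.

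Counts were filtered with filterByExpr (minimum count 10), scaled by TMM and fitted in 1 model with a mean per group, using edgeR 4.0.16 under R 4.3.3 (two-sided tests, Benjamini-Hochberg adjustment over 18855 genes, 8 residual degrees of freedom). The 5 comparisons were perivascular against inguinal cells at each stage, preadipocytes against progenitors within perivascular and within inguinal fat, and their interaction. Alternatives used DESeq2 1.42.0, limma 3.58.1 with voom library weights, DESeq2's size factors, library totals, no filter, a minimum count of 50, the groups compared alone, a block for the pools, and fits without 1 library or without 3. The fit was tested on simulated counts, with genes changed in perivascular progenitors alone and the same means in all groups otherwise. That setting is simpler than these data, so it cannot show that the calls or the scaling here hold.

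The 10 genes and 8 gene lists (further family members, linker, chondroitin and dermatan sulfate, keratan sulfate synthesis, bound collagens, bound receptors and growth factors, proteases, other proteoglycans) and the marker lists were chosen with earlier results of these data known. The rule for named genes took all 10 members, up to 3 called genes per list and comparison with the largest change and at least 10 CPM, the genes most correlated with each member (mean of at least 10 CPM, prior count 2) and genes next to the clusters. From these the text prefers genes whose call held in all alternatives. Transcript lengths and coordinates come from GENCODE release 21 for mouse, and promoter windows from RefSeq (GRCm38.p6). Libraries of the same number share a pool per the labels. Their deviations from the group means correlated with a median of 0.0093 over 18 pairs, against 0.0087 over 36 pairs of other numbers. No 2 libraries were identical.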

Additional observations from a re-analysis of the deposited data

Results flagged for a closer look

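In 3 genes the stage change differed between the depots by the interaction test: Bgn (-1.86), Aspn (-1.01) and Ecm2 (-1.44, log2). The first 2 calls depend on which libraries are in the fit, as given above, and that of Ecm2 does not.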

How the results depend on the processing

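Over 50 results of the 10 genes, 1040 alternative values were computed: 871 kept direction and call, 93 lost the call, 55 gained one and 21 changed sign, and 15 results kept direction and call throughout. Of the sign changes, 18 were called in neither fit. The 3 that were called are Fmod in perivascular preadipocytes against progenitors, at -0.59 with limma-voom weights, -1.02 without perivascular preadipocyte library 1 and -1.09 without the 3 libraries named above. That change was also -0.13 with the pools as a block and -0.023 with a minimum count of 50, and -1.02 to 0.43 over fits without 1 library. On library totals the uncalled changes turned to 0.14 for Aspn between progenitors and, between inguinal stages, to 0.020 for Lum, 0.033 for Podn and 0.38 for Aspn. Aspn there was also 0.035 without the count filter, 0.0021 with a minimum count of 50 and 0.027 with limma-voom, and -0.066 to 0.074 without 1 library. The Omd interaction became -0.028 on library totals, -0.19 with limma-voom and -0.23 without the 3 libraries, and -0.25 to 0.42 without 1 library. Fmod between preadipocytes ran from -0.0012 to 1.45 without 1 library. The pools as a block ended the calls of Ogn (0.58) and Ecm2 (-0.48) between preadipocytes and of Prelp (-0.43) in perivascular stage, and changed no other call of the 10 genes. On library totals the median of all genes moved to 0.48 between progenitors and 0.40 between inguinal stages, 83.7 and 82.6% of the calls were higher instead of 52.5 and 52.0%, and 7548 and 5276 genes were called instead of 4687 and 3384. Changes in the text are relative to the TMM scale. Between perivascular stages 6198 genes were called, against 10914 with limma-voom, 2825 in the 2 groups alone and 9893 without the 3 libraries. Between inguinal stages limma-voom called 6052 and the 2 groups alone 5757. The interaction called 2834, against 8384 with limma-voom and 7783 without the 3 libraries.

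Of the 10 genes, those called were 4 instead of 8 between preadipocytes and 3 instead of 7 between perivascular stages in the 2 groups alone. Between inguinal stages 8 were called with limma-voom, 9 in the 2 groups alone and 8 without the 3 libraries, instead of 5. For the interaction 6 were called with library totals, 6 with DESeq2, 9 with limma-voom and 8 without the 3 libraries, instead of 3. Leaving out 1 library gave 5 to 7 called between progenitors, 3 to 8 between preadipocytes, 6 to 10 between perivascular stages, 3 to 8 between inguinal stages and 1 to 8 for the interaction. The genes called in all were then 3604 to 5761, 6615 to 9574, 3916 to 8000, 2276 to 4292 and 1666 to 5231, in that order. The cause of these shifts was not tested. Precision is limited by 3 libraries per group, whose pools are shared between groups per the labels. The SE of a log2 change of the 10 genes ran from 0.15 to 0.55 in the 4 comparisons of groups.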
